A study of Homo sapiens with 6 samples.

Results

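Cytochrome P450 genes outside family 1 were examined in MDA-MB-453, a line of human breast cancer cells with luminal features. The members were the rows of the gene count table whose symbol is CYP followed by a family number, subfamily letters and a gene number, without CYP1A1, CYP1A2, CYP1B1, CYP24A1 and CYP51A1. In total 51 of the 36517 genes in the table were members. Only 22 of them had 10 or more counts in at least 3 of the 6 libraries, which is under the 30 needed for a description of those genes alone, so all 51 are described. Both groups were MDA-MB-453 cells transduced with lentivirus and labelled day 3, without a stated starting point. The control group (lv_con, n = 3) carried a negative-control hairpin, shNC. The shtRF group (lv_shtRF, n = 3) carried a hairpin against tRF-1-Ser, a small RNA cut from the 3′ end of a serine tRNA precursor. Per the study's methods these were stably transduced cells. The study reports a PCR check of the knockdown in its cell models. The small RNA itself is not measured by mRNA sequencing, so in these libraries group membership rests on the labels. Whether the 3 libraries of a group came from separate transductions is not stated, and p-values measure only the spread between these libraries.

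Cytochrome P450 enzymes are haem proteins that insert an oxygen atom into a substrate, taking electrons from a reductase partner. Most sit in the endoplasmic reticulum and are served by POR, whereas the mitochondrial ones are served by ferredoxin and its reductase. Families 2 and 3 are best known for drug and toxin oxidation in liver, family 4 for fatty acids, and the higher-numbered families for steroids, bile acids, vitamin D and retinoids. In breast cells the interest lies in local hormone, vitamin D and fatty acid oxidation.

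Total counts ran from 63541413 to 78917459 per library. All 8 luminal breast markers were detected, and the lowest of them, FOXA1 (136 CPM in control), exceeded every P450 member. CPM is the count scaled to a library of 1000000 counts with TMM factors. Summed CPM of the luminal list was 4550 to 4610 in control and 5590 to 6080 in shtRF. Of 6 hepatocyte markers, APOA1, APOA2, FGB, TTR and SERPINA1 had at most 12 counts in any library, and only ALB passed the filter for testing. The summed hepatocyte level was 9.55 to 12.2 CPM in control and 2.84 to 4.63 in shtRF, nearly all of it ALB. For 4 fibroblast markers the sums were 29.8 to 35.6 and 20.6 to 21.4 CPM, nearly all of it COL1A1, with COL3A1 at no more than 4 counts. The 3 leukocyte markers reached at most 6 counts in any library and summed to 0.0307 to 0.146 CPM in control and to 0 to 0.0582 in shtRF. The 3 endothelial markers summed to 0.0922 to 0.301 and 0.185 to 0.349 CPM. The part of these list levels in the P450 results was not tested.

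Among the 22 members that passed the filter, 1 rose and 2 fell in shtRF at an adjusted p below 0.05 (edgeR quasi-likelihood test, adjusted over all 19628 tested genes). CYP2D6 rose, and CYP4F8 and CYP39A1 fell. CYP39A1 passed the filter through its control libraries alone and could be tested only as a gene that is lower in shtRF, so its call adds nothing to these counts as support. The other 19 did not pass the threshold. Of all tested genes 39.5% passed, 20.6% as higher and 18.9% as lower, so the share among the P450 members was below that of the genes at large. CYP4F8 fell by over 2-fold and CYP2D6 rose by less than that. Over all tested genes of any abundance, 2.66% were higher and 3.11% were lower by over 2-fold. CYP39A1 also fell by over 2-fold, but with the limit above it is not set beside that background. No share over 2-fold was computed for genes of like abundance. In 5 members (CYP2D6, CYP2E1, CYP3A7, CYP4F8 and CYP39A1) the CPM of the groups did not overlap, whereas 48.7% of all tested genes had groups that did not overlap. The median log2 fold change was -0.00634 over the 22 members and -0.00251 over all tested genes, with 11 members above 0 and 11 below.

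These genes were weakly expressed. Their median was 42.1 counts per library, against 532 over all tested genes. Below a mean of 100 counts, 2 of 14 members passed (CYP4F8 and, with the limit just given, CYP39A1), where 15.2% of all genes did. Between 100 and 1000 counts 1 of 8 members passed, where 38.3% of all genes did, and no member lay above 1000 counts. The median SE between 100 and 1000 counts was 0.135 for members and 0.125 for all genes. The part of abundance in the low share of calls was not tested. The half-width of the 95% interval on the log2 fold change ran from 0.192 to 1.57, with a median of 0.716. A failed test at the wide end of that range leaves room for a change of over 2-fold. Of 186 member counts between 1 and 50, 70.4% were even. Counting each mate of a pair separately gives even counts, so the number of independent fragments may be smaller than the count.

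**Figure D1:**
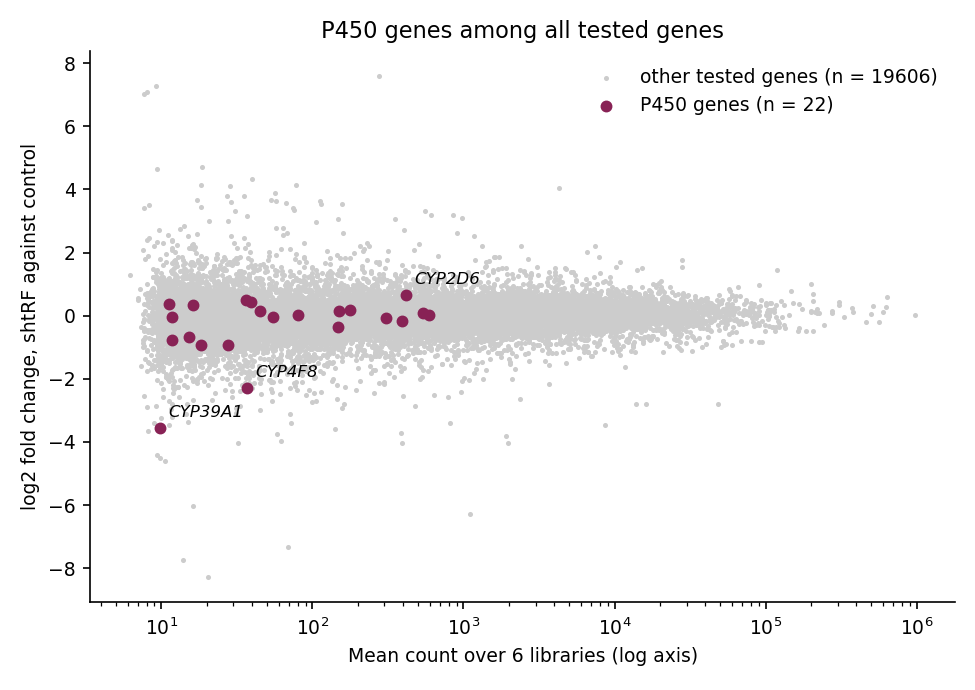
Mean count over the 6 libraries (log axis) against the log2 fold change of shtRF over control for all 19628 tested genes, with the 22 tested P450 members as dark points. All members lie below 1000 counts, CYP39A1 and CYP4F8 are the lowest of them on the vertical axis, and CYP2D6 is the highest.

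The promoters of both genes called lower are shown. CYP39A1 could be tested only in that direction, so the shared direction is no sign of common behaviour. Each run is 300 bases of RefSeq sequence (GRCh38.p14), from 250 bases before the start site to 50 after it, on the strand of the gene. They were searched on both strands for AGGTCA, the half-site of many nuclear receptors, for GCGTG, the core of the AHR element, and for CACGTG, the E-box bound by MYC. GCGTG and CACGTG share the run CGTG, but the base before it differs, so no CGTG counts as both. No capitals appear because none of the 3 motifs was found in either window.

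CYP39A1, chr6:46652769-46653068, minus strand: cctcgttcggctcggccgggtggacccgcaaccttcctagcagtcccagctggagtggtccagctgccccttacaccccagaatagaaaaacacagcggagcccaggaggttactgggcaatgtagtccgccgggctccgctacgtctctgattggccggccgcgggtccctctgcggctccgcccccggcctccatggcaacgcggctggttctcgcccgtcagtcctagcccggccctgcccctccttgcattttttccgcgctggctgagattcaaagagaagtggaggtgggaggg
CYP4F8, chr19:15614968-15615267, plus strand: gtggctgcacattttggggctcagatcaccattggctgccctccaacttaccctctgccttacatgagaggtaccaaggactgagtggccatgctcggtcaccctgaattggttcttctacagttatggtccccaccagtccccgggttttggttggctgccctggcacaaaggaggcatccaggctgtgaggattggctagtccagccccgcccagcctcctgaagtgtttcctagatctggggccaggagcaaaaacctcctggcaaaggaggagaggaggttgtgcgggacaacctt

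Of the 22 tested members, 18 had a promoter in the RefSeq set used. CYP2D6 and CYP27B1 were among those without one, so their promoters were not searched. AGGTCA was present in 7 of the 18 (CYP17A1, CYP21A2, CYP2E1, CYP3A5, CYP3A7, CYP4B1 and CYP4V2) and in 13.8% of all promoters. GCGTG was present in 5 of the 18 (CYP20A1, CYP2A7, CYP2J2, CYP2U1 and CYP4V2) and in 36.5% of all promoters. CACGTG occurred in CYP20A1 alone among the 18 and in 7.26% of all promoters. A member counted where any of its promoters held the motif. The percentages are over 35116 single promoters, so the units differ.

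Levels were compared between genes as RPKM, the count per kilobase of exon and per 1000000 counted reads. Among the 51 members 5 had a mean above 1 RPKM. In control the order was CYP20A1 (2.47 ± 0.181 RPKM; SD, n = 3), CYP2D6 (1.95 ± 0.462), CYP2R1 (1.35 ± 0.13), CYP27B1 (1.32 ± 0.0959) and CYP4Z1 (1.22 ± 0.221). CYP4V2 (0.872 ± 0.0526 RPKM) and CYP2D7 (0.517 ± 0.203) came next. The control libraries of CYP20A1 and CYP2D6 overlapped, as did those of CYP2R1, CYP27B1 and CYP4Z1, whereas every control library of CYP2D6 (1.55 to 2.45 RPKM) lay above those of CYP2R1 (1.20 to 1.42). The 3 control libraries of CYP4V2 (0.822 to 0.927 RPKM) lay below the 3 of CYP4Z1 (1.02 to 1.46). In shtRF CYP2D6 came first with 2.97 ± 0.469 RPKM and CYP20A1 second with 2.55 ± 0.108. Every tested member lay between the 2.37th and the 51.3rd percentile of the tested genes by RPKM, so the most abundant P450 genes here were about as abundant as a median tested gene. The summed level of all 51 members, 45.3 ± 2.82 CPM, came to 46.6 ± 1.88 CPM with the knockdown (SD, n = 3 each), a difference below the spread between libraries.

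**Figure D2:**
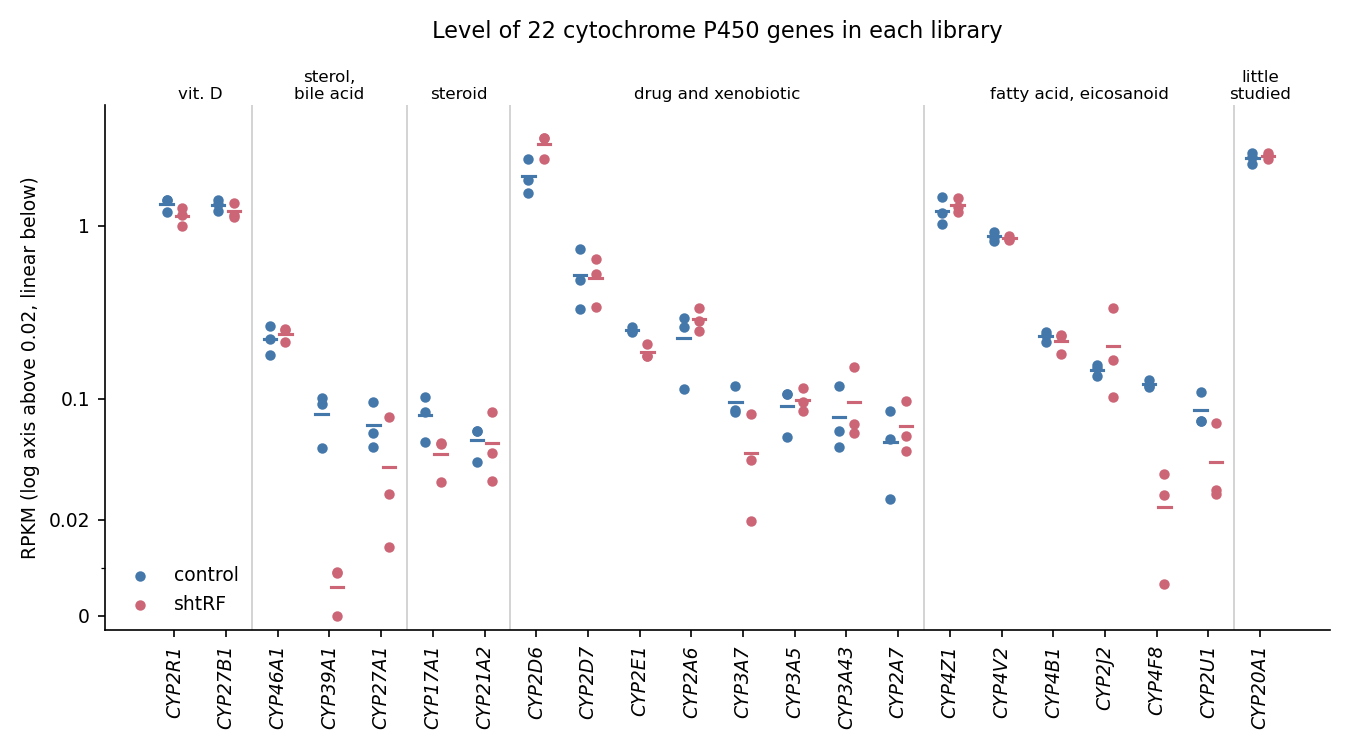
RPKM of the 22 P450 genes with 10 or more counts in at least 3 libraries, grouped by role, with 1 point per library and a bar at each group mean (log axis above 0.02 RPKM, linear below). The shtRF points of CYP39A1 and CYP4F8 lie below their control points, and most other genes show the groups side by side.

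The study concerns a small RNA regulated by a vitamin D metabolite, and both vitamin D activating members were among the better-measured genes. Neither passed (median log2 fold change -0.128). CYP2R1, the 25-hydroxylase of the endoplasmic reticulum, had 6.29, 6.28 and 5.34 CPM in control and 5.68, 4.72 and 5.35 CPM in shtRF. The groups overlapped, and the log2 fold change was -0.18 (95% interval -0.43 to 0.06; adjusted p = 0.235). CYP27B1, the mitochondrial 1-alpha-hydroxylase that completes the active hormone, had 4.14, 4.46 and 4.81 CPM in control and 4.66, 4.16 and 3.93 CPM in shtRF. These groups overlapped too, at -0.07 (-0.33 to 0.19; adjusted p = 0.693). For both genes the interval leaves out a change of 2-fold in either direction. In the study the level of CYP27B1 was compared by PCR between breast cancer lines and the breast epithelial line MCF-10a. The primer pair is given here because it shows which part of the transcript that assay reads.

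CYP27B1 forward primer: gtccagacagcactccactc
CYP27B1 reverse primer: atttggctctgggaactggg

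In GENCODE release 29 both primers matched 1 coding transcript of CYP27B1, at bases 1225 to 1244 and, as the reverse complement, 1469 to 1488, giving a product of 264 bases, and the pair also matched a retained-intron transcript. A shorter coding transcript held only the forward primer. The gene lies on chromosome 12, from 57762334 to 57768986 on GRCh38, and 3.11% of its exon sequence overlaps METTL1 on the same strand. METTL1 itself was 9.71 ± 1.32 CPM in control and 9.45 ± 1.38 in shtRF.

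Of 6 genes for cholesterol and bile acid oxidation, 3 passed the filter and 1 of these fell (median log2 fold change -0.763). CYP39A1, which hydroxylates 24-hydroxycholesterol on the way to bile acids, had 20, 12 and 23 counts in control and 2, 2 and 0 in shtRF. No shtRF library exceeded 3 counts, and the groups were far apart. The fitted log2 fold change was -3.55 ± 0.75 (SE; adjusted p = 0.000646), but it depends on the prior count at values this low. From the summed counts, 55 in control and 4 in shtRF, the level was 13.0-fold higher in control, with an exact 95% interval of 4.8 to 49.4 that covers counting error only. That interval takes every count as independent, so it is too narrow if mates of a pair were counted separately. CYP39A1 lies on chromosome 6, from 46549580 to 46652830, and shares no exonic base with another gene of the table. At 0.0822 RPKM in control it was a rare transcript from the start.

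CYP46A1 makes that same 24-hydroxycholesterol from cholesterol, chiefly in neurons. It had 2.41, 2.03 and 1.67 CPM in control and 2.35, 2.07 and 2.39 CPM in shtRF, so the groups overlapped (log2 fold change 0.16, 95% interval -0.21 to 0.53). CYP27A1, the mitochondrial sterol 27-hydroxylase, had 10, 21 and 15 counts in control and 3, 6 and 15 in shtRF. With the third shtRF library at the level of control, its log2 fold change was -0.76 with an interval of -2.01 to 0.49. Without that library it was -1.65 and did not pass either (adjusted p = 0.106). The remaining genes of the classical liver pathway, CYP7A1, CYP7B1 and CYP8B1, had at most 2 counts in any library and were not tested.

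Steroid hormone synthesis was close to the limit of detection, with 2 of 6 members tested and a median log2 fold change of -0.357. CYP17A1, the 17-hydroxylase and lyase on the way to androgens, had 22, 21 and 15 counts in control and 13, 8 and 12 in shtRF. All shtRF counts were below the control counts, although in CPM the lowest control value (0.188) lay below the highest shtRF value (0.194), and the gene did not pass (log2 fold change -0.69, 95% interval -1.73 to 0.35; adjusted p = 0.3). CYP21A2, the adrenal 21-hydroxylase, had 8, 14 and 15 counts against 17, 7 and 9 (-0.03, interval -1.15 to 1.1). Of its distinct 100-base stretches 20% also occur in the transcripts of the pseudogene CYP21A1P, and 10.2% of its exon sequence overlaps other genes, mainly TNXB on the opposite strand. CYP19A1 (aromatase), CYP11A1, CYP11B1 and CYP11B2 had at most 8 counts in any library.

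The 4 retinoid-oxidising genes were not tested. CYP26A1, the main retinoic acid hydroxylase, had 0, 18 and 2 counts in control and 4, 2 and 4 in shtRF, so a single control library held most of its reads. CYP26B1 had 6, 6 and 14 counts in control and 8, 6 and 0 in shtRF. CYP26C1 and CYP27C1 reached at most 8 and 5 counts.

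Drug and xenobiotic oxidation was the largest role group, with 16 members, 8 of which passed the filter and 1 of which rose (median log2 fold change 0.243). CYP2D6, the hydroxylase of many drugs including tamoxifen and opioids, had 383, 332 and 298 counts in control and 552, 424 and 503 in shtRF. Scaled, these were 5.89, 4.40 and 3.73 CPM in control and 7.86, 6.17 and 8.11 in shtRF. Every shtRF library lay above every control library in CPM, although the gap between the highest control and the lowest shtRF value was small, and in RPKM, which carries no TMM factor, these 2 libraries were 2.45 and 2.43. The log2 fold change was 0.67 ± 0.14 (SE; adjusted p = 0.00076), a 1.59-fold rise. The control libraries of CYP2D6 were themselves spread by over 1 CPM (SD 1.1).

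CYP2D7 lies 9.3 kb from CYP2D6 on chromosome 22 and is a closely similar copy that is a pseudogene in most genomes. It had 106, 55 and 87 counts in control and 83, 55 and 92 in shtRF, and its log2 fold change was 0.01 (95% interval -0.58 to 0.61; adjusted p = 0.98). Of the distinct 100-base stretches in CYP2D6 transcripts, 13.4% occur in CYP2D7 transcripts too, and reads from those stretches cannot be assigned to 1 of the copies by sequence. How the aligner placed them is not given in the sources used here, so both values are uncertain to that extent. The difference between the changes of both genes was not tested.

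CYP2E1, which oxidises ethanol and small solvents, had 2.29, 2.32 and 2.47 CPM in control and 1.98, 1.78 and 1.74 CPM in shtRF. The groups did not overlap, yet the adjusted p was 0.0902 (log2 fold change -0.36, 95% interval -0.71 to -0.02, unadjusted p = 0.0403). In its annotation 25.4% of the exon sequence overlaps other genes, mainly SYCE1 on the opposite strand, which had at most 16 counts in any library. CYP3A7, the main CYP3A enzyme of fetal liver, had 19, 31 and 24 counts in control and 20, 5 and 10 in shtRF (-0.94, interval -1.99 to 0.11; adjusted p = 0.15). In CPM its lowest control value (0.292) and highest shtRF value (0.285) nearly met. An overlap with the readthrough gene CYP3A7-CYP3A51P on the same strand takes in most of the 42.7% of exon sequence that is shared, and that gene had 15, 21 and 19 counts against 13, 5 and 7, so these values are not independent of each other.

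The remaining tested members of the group had overlapping groups. CYP3A5, which oxidises drugs and steroids in adults, had 0.606 ± 0.181 CPM in control and 0.676 ± 0.101 in shtRF. CYP3A43 had 0.204 ± 0.0886 and 0.256 ± 0.124 CPM. CYP2A6, the nicotine oxidase, had 42, 43 and 20 counts in control and 52, 45 and 35 in shtRF, and its neighbour CYP2A7 had 14, 5 and 12 against 9, 18 and 10. Some 8.42% of the stretches of CYP2A6 recur in other genes, mostly in CYP2A7. The log2 fold changes of these 4 genes lay between 0.16 and 0.43, each with an interval that spans 0. CYP3A4, the leading drug oxidase of adult liver, reached at most 7 counts. No more than 10 counts were found in any library for CYP2C8, CYP2C18, CYP2C19, CYP2B6, CYP2A13 and CYP2F1.

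Fatty acid and eicosanoid oxidation had 14 members, 6 of which passed the filter and 1 of which fell (median log2 fold change -0.0105). CYP4F8, a hydroxylase of prostaglandins known from seminal vesicles, had 53, 61 and 72 counts in control and 18, 14 and 3 in shtRF. Scaled, these were 0.815, 0.808 and 0.902 CPM in control and 0.256, 0.204 and 0.0484 in shtRF. The control libraries were close together, all 3 shtRF libraries lay below them, and the third was the lowest by far. The log2 fold change was -2.28 ± 0.43 (SE; adjusted p = 0.000187), a level 4.85-fold higher in control, with a 95% interval of -3.17 to -1.39 on the log2 scale. CYP4F8 lies on chromosome 19, from 15615218 to 15630638, and 4.87% of its exon sequence overlaps CYP4F3, which had at most 6 counts. None of its 100-base stretches occurs in the transcripts of another gene, and the same holds for CYP39A1.

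Other genes of the chromosome 19 cluster could not be set beside it. CYP4F2, CYP4F3, CYP4F11 and CYP4F22 reached at most 6 counts in any library. CYP4F12 had 6, 2 and 6 counts in control and 8, 16 and 6 in shtRF and missed the filter.

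CYP4Z1, a fatty acid hydroxylase whose expression is largely restricted to mammary tissue, was the most abundant member of family 4 per length. It had 2.86, 1.99 and 2.33 CPM in control and 2.41, 3.01 and 2.64 CPM in shtRF, with overlapping groups (log2 fold change 0.17, 95% interval -0.18 to 0.52; adjusted p = 0.456). Of its stretches 19.2% recur in the pseudogene CYP4Z2P. CYP4V2, a fatty acid hydroxylase needed in the retina, had 8.40 ± 0.491 CPM in control and 8.49 ± 0.07 in shtRF, and its interval of -0.17 to 0.21 was the narrowest of all members. CYP4B1 had 52, 54 and 67 counts against 56, 58 and 40. CYP4A11, CYP4A22 and CYP4X1, likewise on chromosome 1, reached at most 8 counts.

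CYP2J2, an arachidonic acid epoxygenase, had 30, 33 and 32 counts in control and 70, 22 and 32 in shtRF, so the first shtRF library stood alone above the other five (log2 fold change 0.50, interval -0.32 to 1.32). CYP2U1, which hydroxylates long-chain fatty acids, had 29, 49 and 36 counts in control and 12, 13 and 28 in shtRF. The third shtRF library lay within the range of the control libraries in CPM, and the gene did not pass (log2 fold change -0.94, 95% interval -1.84 to -0.04; adjusted p = 0.0922). It did pass without that library (-1.51, adjusted p = 0.0258). With any other single library left out it did not pass (adjusted p = 0.118 to 0.295).

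Among the members with little-studied substrates only CYP20A1 passed the filter. Its 6 libraries were close together, with 494, 516 and 639 counts in control and 523, 563 and 519 in shtRF and overlapping groups (log2 fold change 0.10, 95% interval -0.11 to 0.31; adjusted p = 0.48). CYP2W1, described as a fetal and tumour-associated enzyme, had 4, 6 and 10 counts against 12, 9 and 5. CYP2S1 reached at most 4 counts.

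**Figure D3:**
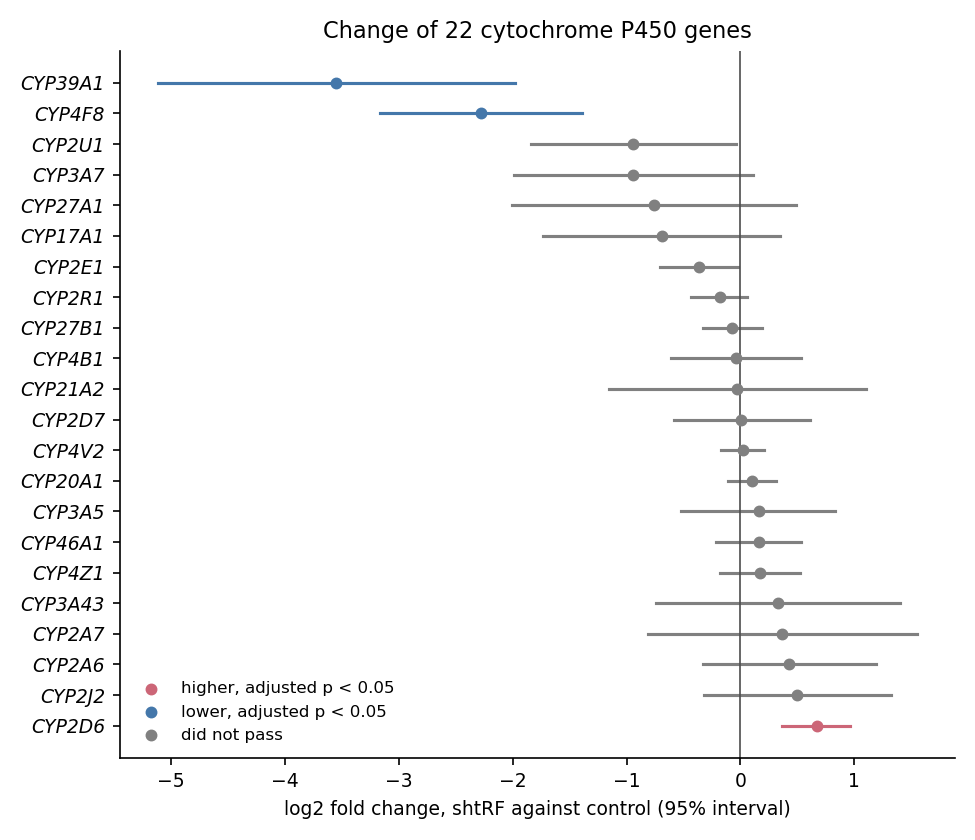
The log2 fold change of shtRF against control for the 22 tested P450 genes, with 95% intervals from the edgeR fit and colours for the call at an adjusted p under 0.05. The intervals of CYP39A1 (-5.12 to -1.98) and CYP4F8 (-3.17 to -1.39) lie below 0, and that of CYP2D6 (0.37 to 0.96) lies above. The 19 grey genes did not pass, although the intervals of CYP2E1 (-0.71 to -0.02) and CYP2U1 (-1.84 to -0.04) also lie below 0.

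The 29 members that missed the filter had at most 18 counts in any library, and 6 of them (CYP2A13, CYP4F2, CYP7A1, CYP7B1, CYP8B1 and CYP11A1) had no more than 3 in every library. They are transcripts that were hardly detectable at this depth. By position, the 12 members on chromosome 19 included 3 that passed the filter, the 8 on chromosome 10 included 2, and none of the 4 on chromosome 8 did.

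Genes that serve or regulate P450 enzymes were measured far more precisely. Of 51 names, 50 were in the table and 38 were tested, of which 15 were higher and 9 were lower with an adjusted p under 0.05, beside the 39.5% of all genes. Of these 38 genes 27 averaged 1000 or more counts and 18 of the 27 passed, beside 58.2% of all genes at that abundance. Their median log2 fold change was 0.0736. Of the 12 electron donors and their partners, 5 rose and 2 fell (median log2 fold change 0.09). POR, the reductase of the microsomal enzymes, had 30.1, 29.5 and 30.0 CPM in control and 27.5, 27.2 and 27.0 in shtRF. The groups were apart but the change was small and did not pass (log2 fold change -0.13 ± 0.06, SE; adjusted p = 0.0886), although it did under 4 alternatives, which were upper quartile scaling (adjusted p = 0.0309), a filter of 1 CPM in 3 libraries (0.0385) and limma on log2(RPKM + 1) and log2(RPKM + 0.1) (0.0404 and 0.0376). FDXR, the reductase of the mitochondrial chain, rose by 0.27 (adjusted p = 0.00172), and its ferredoxin FDX1 stood at 7.85 ± 0.473 and 8.40 ± 0.13 CPM (0.10, adjusted p = 0.448). CYB5R4, a cytochrome b5 reductase, rose most in this list, by 0.65, and CYB5A, the cytochrome b5 that assists several P450 reactions, fell by 0.31 on the log2 scale (adjusted p = 0.000273).

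Of 12 tested genes of haem synthesis and breakdown 7 rose and 2 fell (median log2 fold change 0.209). At 1000 or more counts 6 of 9 passed, beside 58.2% of all genes there. ALAS1, the rate-limiting enzyme of haem synthesis, rose from 26.1, 30.3 and 28.0 CPM to 48.8, 50.9 and 49.5 (log2 fold change 0.82, adjusted p = 6.11e-10). HMOX1, which breaks haem down, rose from 4.30, 4.95 and 5.14 CPM to 13.0, 10.2 and 13.0 (1.32, adjusted p = 3.05e-09). FECH, which inserts the iron, fell by 0.31 on the log2 scale.

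Of 25 nuclear receptor genes 14 were tested, of which 3 rose and 5 fell (median log2 fold change -0.0261). Again 6 of 9 passed at 1000 or more counts, beside the same 58.2%. PPARA, a receptor for fatty acids that drives family 4 genes in liver, fell from 9.73, 9.11 and 9.17 CPM to 4.26, 4.30 and 4.89 (log2 fold change -1.06, adjusted p = 3.38e-08). RARG, a retinoic acid receptor, fell from 8.88 ± 1.22 to 4.54 ± 0.807 CPM, and NR2F1 from 434 ± 14.7 to 260 ± 5.79 CPM. VDR was 58.7 ± 2.89 CPM in control and 64.4 ± 2 in shtRF (0.14, adjusted p = 0.0609). NR1I2 and NR1H4, the xenobiotic and bile acid receptors of liver, were hardly detected, at no more than 4 counts in any library, while NR1I3, with 20% of its exonic bases in other genes, was 7.09 ± 0.545 and 7.04 ± 0.476 CPM.

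**Figure D4:**
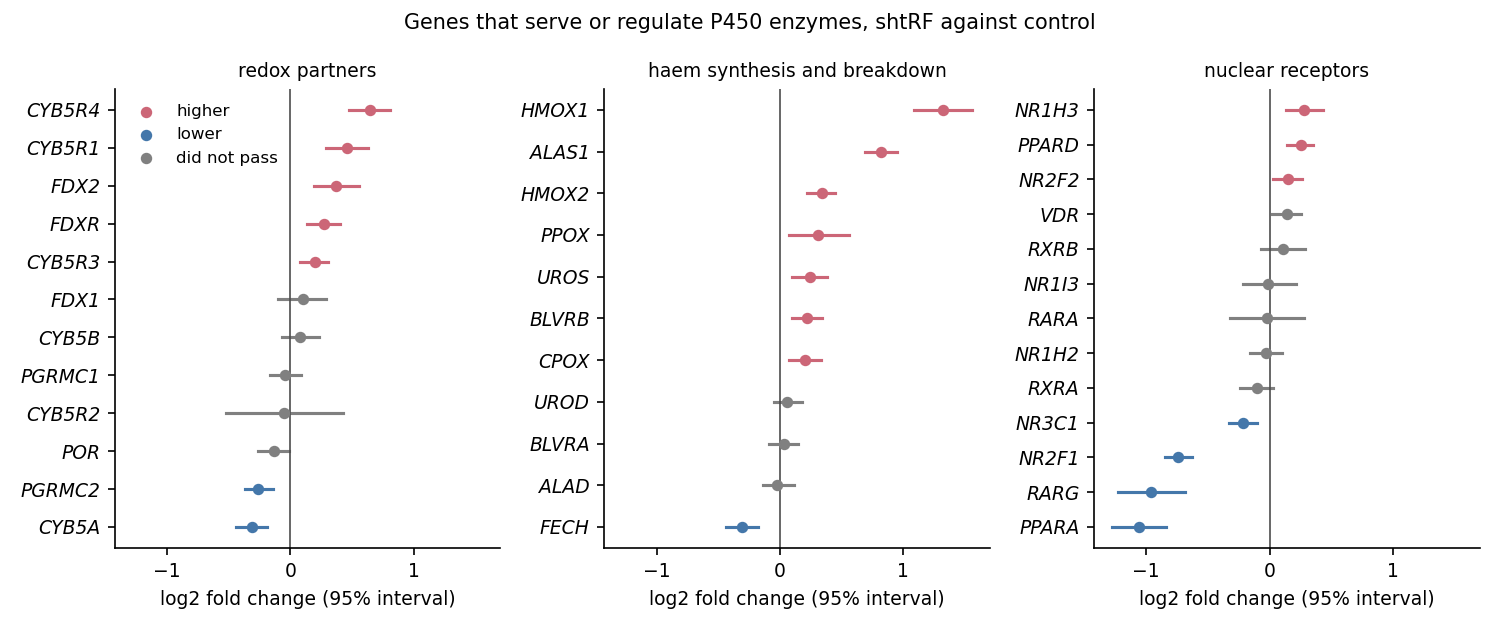
The log2 fold change of shtRF against control with 95% intervals for redox partners, haem genes and nuclear receptors, with not every tested gene drawn. ALAS1 and HMOX1 lie highest among the haem genes, CYB5R4 (0.65) among the redox partners, and PPARA and RARG are lowest among the receptors.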

How the data were processed

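Libraries were prepared with a stranded mRNA kit from total RNA and sequenced as 150-base read pairs. Per the labels' processing notes, Trimmomatic 0.36, featureCounts of Subread 1.5.1 and edgeR 3.12.1 were used with build GRCh38. The aligner and counting settings are not given in the sources used here. The authors deposited raw gene-level read counts of 6 libraries. The authors also deposited RPKM values for part of the genes. All 6 RPKM values of 100% of the 4991 genes matched equalled the count per kilobase and per 1000000 counted reads (relative tolerance 1e-05), and RPKM was recomputed from the counts.

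Groups came from the sample titles. edgeR 4.0.16 (R 4.3.3) was run with filterByExpr (minimum count 10), TMM factors (0.961 to 1.03) and the quasi-likelihood test with group as the only term. P-values were Benjamini-Hochberg adjusted over 19628 genes with a threshold of 0.05. Standard errors were the log2 fold change over the root of its F statistic, and 95% intervals used the fit's total degrees of freedom. All members passing the filter were named, the changed ones with every library, and 3 partner genes with the largest rise and fall each. The members and lists were chosen with earlier results of these data known. Alternatives used DESeq2 1.42.0 and limma 3.58.1, among others. A few genes counted within the lists are not reported here by name. Shared stretches are identical 100-base runs between GENCODE 29 transcripts.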

Additional observations from a re-analysis of the deposited data

How the results depend on the processing

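CYP2D6 was called higher, as the only member in that direction, under every alternative tried, with a log2 fold change of 0.43 to 0.85 and an adjusted p of 5.51e-07 to 0.0431. CYP4F8 and CYP39A1 were called lower in each alternative that tested them. The number of lower members was 2 in the reported fit. It was 1 with at least 10 counts in every library, where CYP4F8 and CYP39A1 were not tested and CYP2U1 passed, 0 with at least 1 CPM in 3 libraries, where only 9 members were tested, and 1 with halved counts, where CYP39A1 was not tested. Counts over 2-fold were 0 under the first and second of these filters, 0 with limma on log2(RPKM + 1), 0 with a pseudocount of 0.1 (scales that compress changes of low values), and 1 with halved counts. Leaving out each library in turn gave 2 to 3 lower members. The replicate number did not pair libraries (correlations of deviations 0.0592, 0.0178 and 0.0174), and with the replicate block 1 member was higher and 2 were lower, with CYP4F8 at -2.35. Of 531 values of 33 named genes, 524 kept their call. The others were CYP2U1, POR and, on log2(RPKM + 1), FDXR (adjusted p = 0.0533). Depth limits every statement on members below about 10 counts.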

Other observations

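The table held 23 P450 pseudogenes, of which 8 were tested. Of these, 3 rose and 1 fell at an adjusted p below 0.05, beside 39.5% of all genes (median log2 fold change 0.4). These 4 are named because they were called, so they were chosen after their values were seen. CYP4F29P on chromosome 21 rose from 1.46, 1.42 and 1.80 CPM to 5.28, 3.89 and 4.66 (log2 fold change 1.56, 95% interval 1.22 to 1.89). CYP4Z2P on chromosome 1 rose by 0.48 (interval 0.26 to 0.71), next to the overlapping groups of CYP4Z1, with which it shares 24.2% of its stretches. CYP4F35P rose by 0.32, and 34.5% of its exonic bases lie in another gene on the same strand. CYP4F23P, 30.5 kb before CYP4F8 on chromosome 19, was 11.9, 9.47 and 6.44 CPM in control and 5.18, 4.54 and 5.05 in shtRF (log2 fold change -0.91, interval -1.22 to -0.59). Both genes were lower in shtRF, and none of the stretches of either gene occurs in another transcript.

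Of 2 P450 genes whose symbols do not follow the family pattern, TBXAS1 (thromboxane synthase) had 54, 48 and 35 counts in control and 25, 16 and 23 in shtRF (log2 fold change -0.98, adjusted p = 0.0487). PTGIS (prostacyclin synthase) had at most 5 counts in any library.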
